A study of Mus musculus with 9 samples.

Results

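Gem, Rrad and Rem2 are RGK GTPases, a small group of Ras-like proteins that act as brakes on voltage-gated calcium channels, and they were examined together with the channel genes they act on. The 10 genes were picked by name: Gem, Rrad and Rem2, the 4 β subunits (Cacnb1, Cacnb2, Cacnb3 and Cacnb4) and 3 pore-forming subunits (Cacna1a, Cacna1b and Cacna1c). They are 10 of 35975 genes with a quantified transcript, and all 10 were among the 15340 genes that passed the filter for testing. Gem and Rrad were chosen because they were lower after maternal emulsifier consumption in these same libraries. Their difference between the groups is therefore given as a description with no test. The other 8 members were chosen as family or channel partners. Rem1, the remaining RGK gene, is described beside them.

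RNA was sequenced from the mediobasal hypothalamus (MBH), the basal hypothalamic region that holds the arcuate nucleus. All 9 mice were wild-type C57Bl/6 males at postnatal day 21, the age of weaning, with 1 library per litter. In the CTRL group (n = 4) the dams drank water. In the Emul group (n = 5) the dams' drinking water held 1% carboxymethylcellulose (CMC) and 1% polysorbate 80 (P80), both food emulsifiers. The dams were treated before pregnancy and through gestation and lactation, and a library stands for a dissected region of mixed cells. The labelled tissue was checked by its defining neuropeptide and transcription factor genes (Pomc, Agrp, Npy, Kiss1, Ghrh, Nr5a1, Tbx3, Cartpt), whose summed TPM (transcript level per length, scaled to the same total in every library) was 428 to 466 in CTRL and 381 to 591 in Emul. Of these 8 genes, Kiss1 was too low to test.

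RGK proteins bind the β subunit of high-voltage-activated calcium channels and lower the calcium current, both by reducing the number of channels at the cell surface and by holding channels at the surface closed. The pore-forming subunit conducts calcium and gives the channel its type: Cacna1a encodes the P/Q-type pore and Cacna1b the N-type pore, both placed at presynaptic terminals, and Cacna1c encodes the L-type pore CaV1.2, found mostly on cell bodies and dendrites. β subunits bring the pore to the membrane and set its gating. Gem was first described as a gene that mitogens induce, Rrad was first described in muscle, and Rem2 is expressed in neurons.

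The RGK proteins differ from other Ras-like proteins in a long C-terminal extension that lacks the usual lipid anchor and that attaches them to the membrane and binds calmodulin and 14-3-3 proteins. The last 60 coding bases of each gene, taken from the GENCODE M21 transcripts on mm10 and ending just before the stop codon, are shown because they hold the end of this extension, in which the 4 genes can be compared base by base. Capitals mark the 22 bases that were identical in all 4 genes. Each stretch lies in 1 coding exon.
Gem, chr4:11713691-11713750, plus strand: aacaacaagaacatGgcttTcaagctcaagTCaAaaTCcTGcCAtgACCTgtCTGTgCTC
Rrad, chr8:104628454-104628513, minus strand: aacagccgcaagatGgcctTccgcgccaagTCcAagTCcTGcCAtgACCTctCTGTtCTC
Rem1, chr2:152634655-152634714, plus strand: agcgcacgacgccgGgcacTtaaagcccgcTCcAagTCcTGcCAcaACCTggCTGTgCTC
Rem2, chr14:54479683-54479742, plus strand: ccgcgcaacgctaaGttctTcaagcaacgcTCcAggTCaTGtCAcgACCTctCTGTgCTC

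Gem and Rrad shared 45 of these 60 bases, more than any other pair, whose counts were 31 to 36. Over the whole coding sequence Gem and Rrad were 69.0% identical, Rrad and Rem2 70.5%, and Gem and Rem2 66.5%. None of the 4 genes shared a stretch of 31 bases, the word length the authors' read assignment uses by default, with any other gene. Reads of one RGK gene could therefore not be assigned to another on the basis of an identical word.

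The libraries held 28245360 to 46067534 estimated counts each. CTRL 3 had the lowest total and also the longest fragments by the deposited lengths (184 bases between transcript length and effective length, against 151 to 169 in the other 8 libraries). The share of TPM on mitochondrially encoded genes was 12.6% to 15.4% in CTRL and 16.2% to 19.2% in Emul, so the nuclear genes shared a smaller part of the TPM total in Emul. The log2 CPM values below (counts scaled to library size with TMM factors, prior count 2) are relative to the other genes of the same library. On that scale the median difference between Emul and CTRL over the 15340 genes was 0.00.

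Rrad was lower in every Emul library than in any CTRL library. Its log2 CPM was 3.46, 3.82, 4.19 and 3.42 in CTRL 1 to 4 and 3.33, 3.26, 2.99, 2.83 and 2.55 in Emul 1 to 5. The group means were 3.72 ± 0.359 (SD, n = 4) and 2.99 ± 0.322 (SD, n = 5), and the fitted log2 fold change was -0.69 with a standard error (SE) of 0.17, that is 0.618 times the CTRL level. The closest libraries were CTRL 4 and Emul 1, while CTRL 3 and Emul 5 lay farthest apart. Rrad (ENSMUSG00000031880, mm10 chr8:104628070-104631327, minus strand) was measured with 210 to 579 estimated counts per library.

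Gem was lower in Emul by about as much, but its groups overlapped. Its log2 CPM was 1.77, 2.22, 2.72 and 2.23 in CTRL 1 to 4 and 1.86, 1.91, 1.51, 1.23 and 1.31 in Emul 1 to 5. CTRL 1 lay below Emul 1 and Emul 2, and the other 3 CTRL libraries lay above all 5 Emul libraries. The means were 2.24 ± 0.385 (SD, n = 4) and 1.57 ± 0.312 (SD, n = 5), with a log2 fold change of -0.65 (SE 0.19), that is 0.637 times the CTRL level. Gem (ENSMUSG00000028214, mm10 chr4:11704457-11714752, plus strand) had the fewest counts of the members, 88 to 201 per library. Both genes were highest in CTRL 3, and without it the log2 fold changes were -0.53 for Gem and -0.57 for Rrad. Of all genes tested, 6.6% had groups that did not overlap, 3.8% with the Emul libraries below and 2.8% with them above. A cutoff of an unadjusted p under 0.05 and a change of more than 1.5-fold was passed by 0.469% of genes, and downwards by 0.222%. Since both genes were picked for this contrast, nothing is read from their place among these genes.

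**Figure D1:**
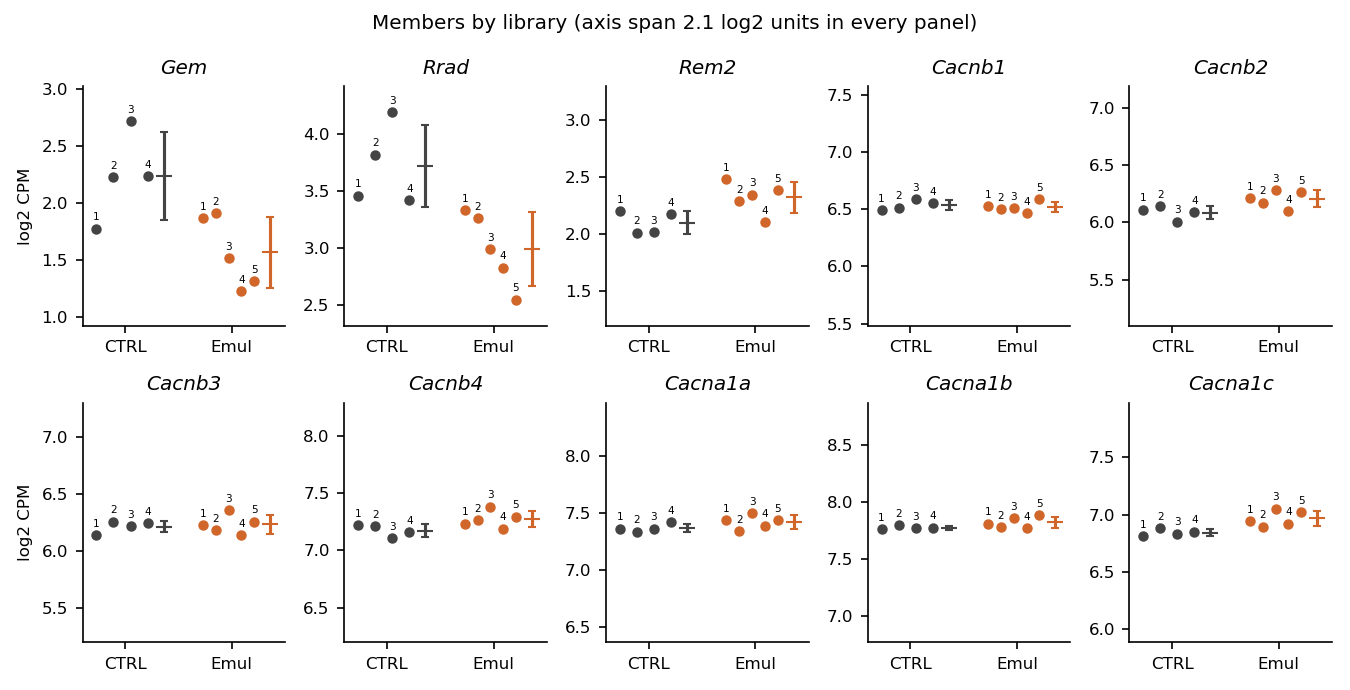
The log2 CPM of the 10 members in each library, with CTRL in grey and Emul in orange. Points are libraries with their replicate number, and the bars to the right of each group show the mean and SD. Every panel spans 2.1 log2 units, so that the distances of Gem and Rrad between the groups (-0.65 and -0.69) can be set beside the differences of the channel genes, which stay between -0.02 and 0.12.

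Rem2 did not share this direction. Its log2 CPM was 2.20, 2.01, 2.02 and 2.18 in CTRL 1 to 4 and 2.48, 2.29, 2.35, 2.11 and 2.38 in Emul 1 to 5. The difference was 0.21 (SE 0.098) upwards in Emul, with 4 of 5 Emul libraries above all CTRL libraries and Emul 4 between them. It lay at the edge of the threshold, with p = 0.052 before adjustment and adjusted p = 0.32 after it (limma-voom, Benjamini-Hochberg over all genes) and p = 0.048 in a two-sided exact permutation test, whose smallest possible value here is 0.0079. Without Emul 4 the difference was 0.27, with an unadjusted p under 0.05 in limma-voom. Leaving out any other single library kept the unadjusted p above 0.05, up to 0.14 without CTRL 2. On the authors' own log2 CPM table the difference was 0.10, with an unadjusted p = 0.40 in limma. Rem2 (mm10 chr14:54476100-54480431, plus strand) had 114 to 219 counts per library.

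Rem1 was close to the limit of detection. It had 16 to 36 counts per library and did not pass the filter. Its log2 CPM lay between -1.24 and -0.11 in CTRL and between -1.004 and -0.45 in Emul, so the groups overlapped throughout.

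The RGK genes differed in how much they contributed to the family total, as the TPM values show. Rrad was the most abundant at 16.2, 19.9, 25.7 and 14.9 TPM in CTRL and 14.02, 12.3, 10.7, 9.58 and 8.05 TPM in Emul. Rem2 was next, at 5.66 ± 0.227 TPM (SD, n = 4) in CTRL and 5.70 ± 0.703 TPM (SD, n = 5) in Emul. Gem followed with 5.07 ± 1.46 TPM in CTRL and 2.90 ± 0.566 TPM in Emul. Rem1 was lowest, at 0.583 to 2.88 TPM over the 9 libraries. Rem2 and Rrad kept their order in 9 of 9 libraries, and Rem2 was above Gem in 8 of 9, the exception being CTRL 3.

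Summed, the 4 RGK genes reached 31.4 ± 6.62 TPM in CTRL and 20.3 ± 3.46 TPM in Emul, with every Emul library below every CTRL library. As the sum holds Gem and Rrad, this is a description too. Rrad made up 60.9% ± 3.57 of the RGK transcripts in CTRL and 53.7% ± 3.41 in Emul, and Rem2 18.6% ± 3.71 and 28.4% ± 2.87 (SD, n = 4 and 5). For both genes the shares did not overlap between the groups, Rrad lying lower and Rem2 higher in Emul. The sum holds Gem and Rrad, chosen as lower in Emul, so the Rem2 share rises while its own level stays at 5.66 and 5.70 TPM. Nothing is read from this separation. The share of Gem was 16.0% ± 2.27 and 14.3% ± 0.770 and that of Rem1 4.45% ± 2.84 and 3.68% ± 0.830, both with overlap. In bulk tissue, fewer cells that express these genes and less RNA per cell cannot be told apart.

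**Figure D2:**
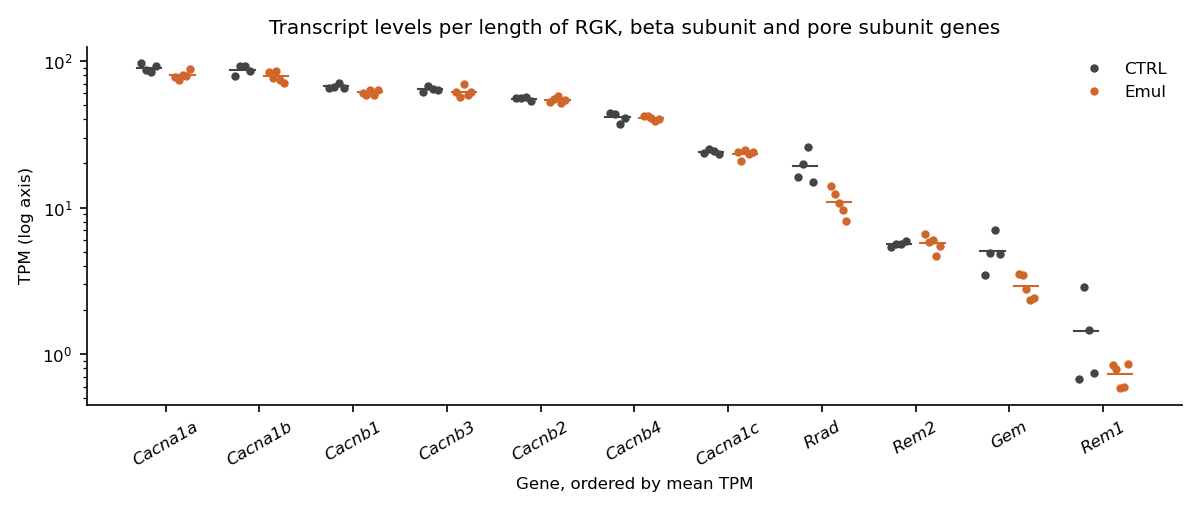
TPM of the RGK, β subunit and pore subunit genes on a log axis, ordered by the mean over 9 libraries. Points are libraries (CTRL grey, Emul orange) and horizontal lines are group means. The channel genes lie between 20.7 and 96.4 TPM in every library, and Rem2, Gem and Rem1 lie below 10.

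On average the channel genes were expressed above the RGK genes, though Cacna1c (24.04 TPM) and Rrad (19.2 TPM) lay close in CTRL. Averaged over the 9 libraries, Cacna1a stood at 84.1 TPM and Cacna1b at 82.3 TPM, and these neighbours could not be ordered, since Cacna1a was higher in only 4 of 9 libraries. Cacnb1 (63.6 TPM) and Cacnb3 (62.8 TPM) could likewise not be ordered, with Cacnb1 higher in 6 of 9. Cacnb2 (54.7 TPM), Cacnb4 (41.0 TPM) and Cacna1c (23.6 TPM) followed in this order in 9 of 9 libraries. Cacna1c was above Rrad (14.6 TPM) in 8 of 9, and in CTRL 3 Rrad exceeded it. These levels count all annotated transcripts. Protein-coding ones carried 44.6% of Cacna1a TPM and 93.2% of Cacna1b TPM, and 48.1% of Cacnb2 TPM and 87.6% of Cacnb4 TPM. The order given here is therefore not that of protein-coding transcripts. In protein-coding TPM over the 9 libraries together, Cacna1b stood above Cacna1a and Cacnb4 above Cacnb2. Their order in each library was not examined.

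There were 13.7 ± 2.74 RGK transcripts for every 100 β subunit transcripts in CTRL (11.4, 14.3, 17.4 and 11.8 in CTRL 1 to 4). In Emul there were 9.34 ± 1.65 (11.6, 10.6, 8.66, 8.27 and 7.65 in Emul 1 to 5). The groups overlapped through CTRL 1 and Emul 1. The β subunits themselves summed to 228 ± 4.53 TPM in CTRL and 217 ± 9.46 TPM in Emul, also overlapping, so the numerator differed more than the denominator.

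Among the β subunits, Cacnb2 and Cacnb4 were slightly higher in Emul on the log2 CPM scale but not in TPM, and Cacnb1 and Cacnb3 were within the spread of the libraries. Cacnb2, whose protein is the β subunit of the cardiac L-type channel and is also expressed in the brain, had a log2 CPM of 6.11, 6.14, 6.01 and 6.09 in CTRL and 6.21, 6.17, 6.28, 6.10 and 6.26 in Emul. The difference was 0.12 (SE 0.043, adjusted p = 0.23 in limma-voom, exact permutation p = 0.040), and Emul 4 lay among the CTRL libraries. For Cacnb4, which is abundant in neurons and mutated in the lethargic mouse, the values were 7.22, 7.21, 7.11 and 7.16 in CTRL and 7.23, 7.26, 7.38, 7.19 and 7.30 in Emul. The difference was 0.10 (SE 0.041, adjusted p = 0.27 in limma-voom, exact permutation p = 0.056), again with Emul 4 inside the CTRL range. Both had an unadjusted limma p under 0.05 and an adjusted p above it. When CTRL 3, the lowest library of both genes, was left out, the differences were 0.092 and 0.077 and the unadjusted p was above 0.05 for both. Leaving out CTRL 4, Emul 3 or Emul 5 did the same for Cacnb4. In TPM, Cacnb2 was 55.3 ± 1.53 in CTRL and 54.2 ± 2.57 in Emul, and Cacnb4 41.4 ± 3.15 and 40.8 ± 1.38 (SD, n = 4 and 5), so the direction of both depended on the scale.

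Cacnb1, the β subunit that skeletal muscle depends on and that is also widely expressed in the brain, was 6.54 ± 0.0437 in CTRL (SD, n = 4) and 6.52 ± 0.0455 in Emul (SD, n = 5). Its difference was -0.02 (SE 0.034, adjusted p = 0.84 in limma-voom). Cacnb3, a β subunit with a role in N-type and L-type channels of neurons, was 6.21 ± 0.0515 and 6.23 ± 0.0833, a difference of 0.02 (SE 0.045, adjusted p = 0.88 in limma-voom). The direction of Cacnb3 depended on the transcripts counted, since it was -0.09 in the authors' log2 CPM table. Transcripts with the higher Ensembl numbers held 47.9% of the Cacnb3 counts (37.0% to 55.3% by library), and the authors' values for Cacnb3 were on average 0.83 lower on the log2 scale than the sum over all transcripts. They matched length-scaled counts of the lower-numbered transcripts within 0.014 on average.

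Of the pore subunits, Cacna1c was higher in Emul on the log2 CPM scale, a direction that TPM did not share. Its log2 CPM was 6.81, 6.88, 6.83 and 6.85 in CTRL and 6.94, 6.89, 7.05, 6.92 and 7.02 in Emul, so that the lowest Emul library was above the highest CTRL library, as for 2.8% of all genes. The difference was 0.12 (SE 0.037), with an adjusted p = 0.18 in limma-voom and p = 0.016 in the exact permutation test. Cacna1a differed by 0.05 (SE 0.035, adjusted p = 0.53 in limma-voom) and Cacna1b by 0.05 (SE 0.030, adjusted p = 0.49), with overlap in both.

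These directions were those of log2 CPM. On the TPM scale the 3 pore genes summed to 201 ± 2.34 in CTRL and 181 ± 7.88 in Emul, with all 5 Emul libraries lower. How many of all genes separate in this way in TPM was not counted, so nothing is read from it. On length-scaled counts with TMM factors the log2 differences were -0.074 for Cacna1a, -0.055 for Cacna1b and 0.045 for Cacna1c. Cacna1c alone was 24.04 ± 0.772 TPM in CTRL and 23.2 ± 1.54 TPM in Emul. In the authors' table Cacna1a (-0.11) and Cacna1b (-0.05) were also lower in Emul. In that table Cacna1c was 0.08 higher, with overlap. TPM divides by the length of each transcript and holds the mitochondrial share in its total, and the part of either in these directions was not tested. The authors' values for Cacna1a were on average 0.29 lower than the sum over all its transcripts, of which higher-numbered ones held 24.7%. A direction that holds on every scale is therefore given for none of the 3 pore genes.

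In all, 3 of the 8 members other than Gem and Rrad had an unadjusted p under 0.05 in limma-voom (Cacnb2, Cacnb4 and Cacna1c), all higher in Emul in log2 CPM, and none had an adjusted p under 0.05. Without CTRL 3 it was 1 of the 8, as with scaling by library size alone. On length-scaled counts, on the authors' log2 CPM table and on length-scaled counts of lower-numbered transcripts it was 0 of the 8, Cacna1c differing by 0.045, 0.080 and 0.077. Over all genes, 6.84% had p under 0.05 and were higher, 8.99% had p under 0.05 and were lower, and 0.117% had an adjusted p under 0.05. The median difference of the 8 genes was 0.07. The changes were below 1.5-fold in each, and for Cacna1c the level was 8.79% higher.

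The makeup of the β pool and of the pore pool was compared as each gene's share of the summed TPM. Cacnb1 held 29.4% ± 1.13 of the β transcripts in CTRL and 28.0% ± 0.696 in Emul (p = 0.063, exact permutation test). Cacnb3 held 28.2% and 28.3%, Cacnb2 24.3% and 24.9%, and Cacnb4 18.1% and 18.8%, each with overlap. Of the pore transcripts, Cacna1a held 44.6% and 44.0% and Cacna1b 43.4% and 43.2%. Cacna1c held 11.97% ± 0.259 and 12.8% ± 0.405 (p = 0.024, exact permutation test, adjusted p = 0.17 over the 7 shares compared), with 1 Emul library inside the CTRL range. None of the 7 shares had an adjusted p under 0.05. A single share could not have passed, because the smallest p of the exact permutation test, 0.0079, stays above 0.05 when adjusted over 7. The adjusted values therefore do not show that the makeup was unchanged.

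The transcripts in use within each gene gave no difference between the groups past the threshold. Of 42 transcript shares compared in the 10 members, 0 had an adjusted p under 0.05 by the exact permutation test (smallest adjusted p = 0.57), and 2 had an unadjusted p under 0.05. These were the retained-intron transcript Cacnb3-205 (9.60% of Cacnb3 TPM in CTRL and 7.29% in Emul, exact p = 0.024) and Cacna1c-207 (54.5% and 58.6% of Cacna1c TPM, exact p = 0.032). The adjusted values decide little, because the smallest p the exact permutation test can give here is 0.0079. Adjusted over 42 shares, a single fully separated share would stay above 0.05. The 2 shares of Gem, and those of Rrad, also mirror each other. Gem came mainly from Gem-202 (93.6% of its TPM), Rrad from Rrad-201 (94.7%) and Rem2 from Rem2-202 (84.5%). Transcripts annotated as protein-coding carried 100% of Gem and Rrad, but 48.1% of Cacnb2 and 44.6% of Cacna1a, whose remaining TPM was on processed and retained-intron transcripts. Sequence shared with other genes was small, 4.48% of the 31-base words in Cacnb2 and at most 0.333% in the other channel members.

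The other genes of the channel complex and the known partners of RGK proteins, 51 genes in 5 lists, gave 49 that could be tested. Of these, 12 were higher and 2 lower in Emul with p under 0.05 in limma-voom, together 28.6% beside 15.8% over all genes, and none had an adjusted p under 0.05. Their median difference was 0.05, and without CTRL 3 the genes with p under 0.05 were 9. The share of all genes with p under 0.05 without CTRL 3 was not counted. It is thus open whether an excess over all genes remained. The lists were chosen with earlier results of these data known. Among the 18 genes for proteins that bind RGK GTPases, 7 were higher and 1 lower. Calm2 and Calm3 encode calmodulin, which binds the RGK C-terminus and senses calcium, and were higher by 0.19 (SE 0.041, adjusted p = 0.10 in limma-voom) and by 0.11. Of the 14-3-3 genes, Ywhah was higher by 0.13 (adjusted p = 0.11 in limma-voom), Ywhae by 0.09 and Ywhaz by 0.09. Camk2d, a calcium/calmodulin-dependent kinase, was higher by 0.10. Gmip, a RhoGAP named for its binding to Gem, was lower (log2 difference -0.16, adjusted p = 0.21 in limma-voom).

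**Figure D3:**
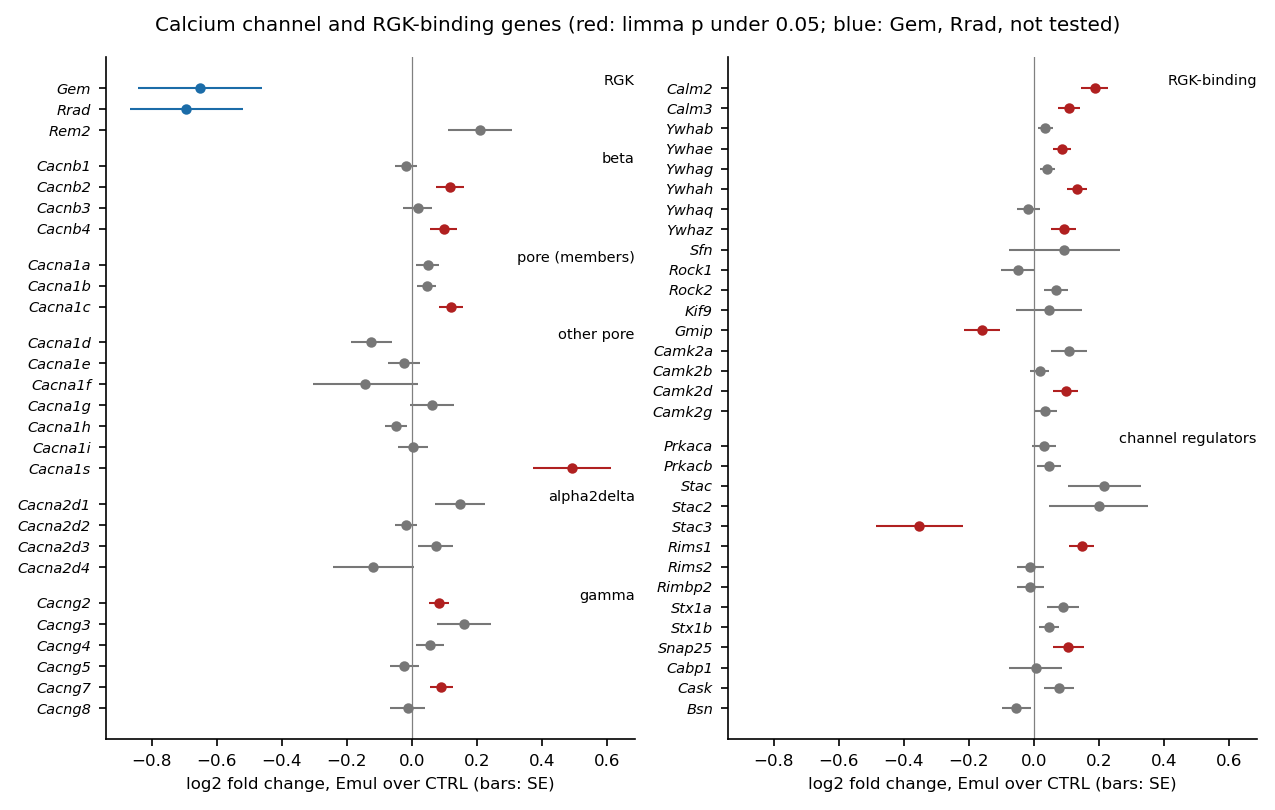
Log2 fold change of Emul over CTRL from limma-voom for the RGK genes, the channel subunits and the RGK-binding and channel-regulating genes. Points are estimates and bars are SE. Red marks an unadjusted p under 0.05, and blue marks Gem and Rrad, which were not tested. Most points lie within 0.2 of zero, and Gem (-0.65), Rrad (-0.69) and Cacna1s (0.49) lie farthest from it.

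Of the 14 genes for kinases, adaptors and release-site partners of the channels, Rims1, which tethers presynaptic channels to the release site, was higher by 0.15 (adjusted p = 0.14) and Snap25, part of the vesicle fusion machinery, by 0.11 (adjusted p = 0.32). Stac3, an adaptor of the skeletal muscle channel, was lower (log2 difference -0.35, SE 0.13, adjusted p = 0.23). Among 7 other pore subunits, 1 passed p under 0.05, Cacna1s, the skeletal muscle L-type pore, which was higher by 0.49 (SE 0.12, adjusted p = 0.11) at a mean of 1.91 TPM. None of the 4 α2δ genes had p under 0.05, and of 6 γ and TARP genes tested, Cacng2 (0.08, adjusted p = 0.23) and Cacng7 (0.09, adjusted p = 0.25) were higher. All of these adjusted p-values are from limma-voom over all genes. Cacng1 and Cacng6 were too low to test.

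Markers of other cell types moved between the groups as well, and their part in the values above was not tested. Over all genes, 6.84% were higher and 8.99% lower in Emul with p under 0.05 in limma-voom. With lists this short, nothing is read from a list with a single gene past that threshold. Of 8 neuron markers, 5 were higher in Emul with p under 0.05 and 0 lower (median difference 0.11), while their summed TPM overlapped (2477 to 2700 in CTRL and 2554 to 2710 in Emul). Snap25 is counted both here and among the channel partners above. Of 7 oligodendrocyte markers, 6 were lower (median difference -0.29, summed TPM 12738 to 16054 and 9513 to 13324). Of 7 astrocyte markers 1 was lower, Gfap, and their summed TPM was 2004 to 2085 in CTRL and 1747 to 1957 in Emul, without overlap. How many of all genes separate in this way in TPM was not counted. Of 7 endothelial markers 1 was lower, Slco1a4. The microglia, smooth muscle and pericyte, tanycyte, thalamus and mediobasal hypothalamus neuron lists had 0 genes with p under 0.05. Of 5 suprachiasmatic nucleus markers tested 1 was lower, Vip, and all 5 differences were negative. Vip differed by -1.50 (adjusted p = 0.24 in limma-voom). Its log2 CPM was 2.42 to 3.41 in CTRL and -0.17 to 3.19 in Emul. The summed TPM of the thalamus list was 76.8 to 103 in CTRL and 58.5 to 167 in Emul. The Emul libraries thus varied more in both, and the part of dissection in this was not tested. The differences of Cacnb2, Cacnb4 and Cacna1c (0.12, 0.10 and 0.12) were of the size of the neuron markers' median. Those of Cacnb1 (-0.02), Cacnb3 (0.02), Cacna1a (0.05) and Cacna1b (0.05) were below it, and that of Rem2 (0.21) was above it. The neuron markers themselves ranged from -0.07 to 0.17. Of 7 skeletal muscle markers, 3 could be tested and 0 had p under 0.05. Ckm, Myh1, Tnnt3 and Mylpf, 4 defining muscle genes, were too low to test, and the summed TPM of the list was 11.0 to 13.2 in CTRL and 9.87 to 12.98 in Emul.

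Gem and Rrad varied together from library to library. After the mean of each group was removed, so that the group difference that chose them played no part, their log2 CPM correlated with Pearson's r = 0.87 and Spearman's rho = 0.73 over the 9 libraries. Without the 2 libraries farthest from the median of Gem (CTRL 3 and Emul 4), r was 0.82. Of all genes tested, 99.7% had a lower r with Gem than Rrad had. Rem2 followed neither, with r = 0.03 to Gem and r = -0.14 to Rrad. These are descriptions over 9 libraries in which a gene pair shares each library's depth and dissection, and CTRL 3 and Emul 4 are also the libraries of lowest and highest depth.

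**Figure D4:**
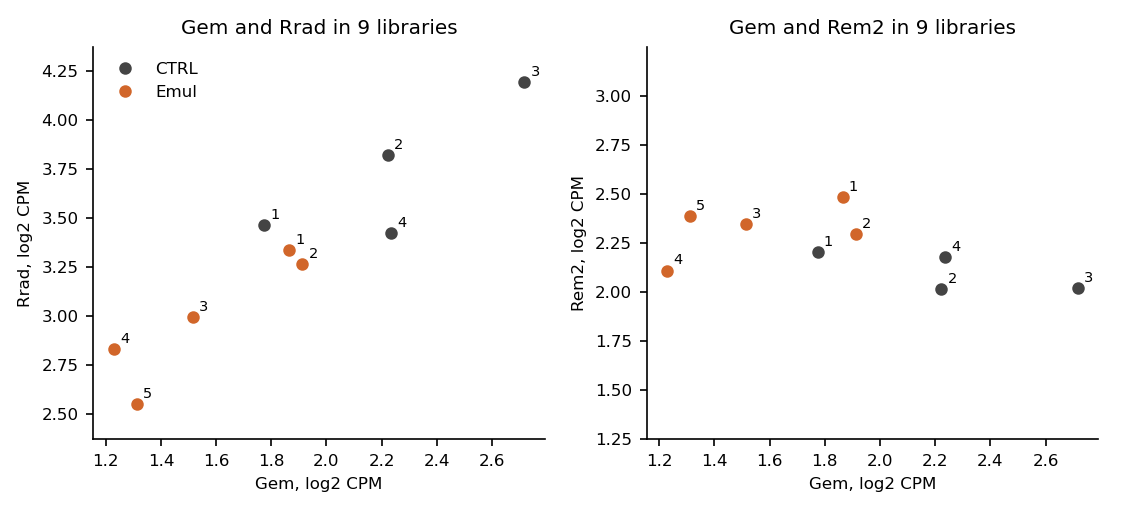
Rrad (left) and Rem2 (right) against Gem in log2 CPM, 1 point per library with its replicate number (CTRL grey, Emul orange), both axes spanning equal ranges in the 2 panels. CTRL 3 is highest in both Gem and Rrad and Emul 4 and Emul 5 are lowest in both, while CTRL 4 is lowest of the CTRL libraries in Rrad but not in Gem. Rem2 shows no relation to Gem (r = 0.03).

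The genes whose pattern over the 9 libraries was most like that of each RGK gene were different ones. For Gem they were Setd1a (r = 0.97), Etv3 (0.96), Dact1 (0.96), 2810459M11Rik (0.94) and Dynlt1a (0.94). For Rrad they were Ccdc71l (0.96), Gm12070 (0.95), Anapc2 (0.95), Junb (0.94) and Cdkn2aip (0.93), of which Junb is an early response transcription factor. For Rem2 they were Sssca1 (0.96), Antxr2 (0.94), Serinc2 (0.92), Dhrs3 (0.92) and Ajuba (0.92). They are the highest values out of 15340 genes over only 9 libraries, and nothing is read from their height. Among the channel genes, Cacna1b and Cacna1c (r = 0.92), Cacnb2 and Cacnb4 (r = 0.89) and Cacnb3 and Cacna1c (r = 0.89) varied together most closely.

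Because Gem was described as an inducible gene, it and Rrad were set beside a list of 20 early response genes. Neurons switch such genes on within minutes of activity. The list was chosen with earlier results of these data known, so its counts are a description and no independent result. It held 18 genes that could be tested. Of these 18 genes 0 were higher and 8 lower in Emul with p under 0.05 in limma-voom, beside 8.99% of all genes lower. They were Fos (-0.69), Fosl2 (-0.60), Jun (-0.30), Junb (-0.46), Egr1 (-0.49), Nr4a1 (-0.69), Nr4a3 (-1.03) and Btg2 (-0.40), and Jun alone had an adjusted p under 0.05 (0.025). The median difference of the list was -0.27. Its summed TPM was 275 to 335 in CTRL and 175 to 259 in Emul, without overlap. The share of all genes without overlap in TPM was not counted. Activity marks that did not pass the test included Arc (-0.28, adjusted p = 0.38), Npas4 (0.05, adjusted p = 0.89) and Fosb (-0.25, adjusted p = 0.61) in limma-voom.

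Within the groups, Gem and Rrad followed most of these genes. With group means removed, the median r over the 18 early response genes was 0.65 for Gem and 0.71 for Rrad, with 12 and 13 of 18 genes above 0.5, where 10.4% and 11.3% of all genes lay above 0.5. Rrad was closest to Junb (0.94), Nr4a1 (0.89) and Fosb (0.89), and Gem to Fosb (0.89), Junb (0.88) and Nr4a1 (0.82). Dusp6 (-0.53 and -0.48) and Nr4a2 (-0.41 and -0.57) ran the other way for Gem and Rrad. For Rem2 the median was 0.03, with 2 of 18 genes above 0.5. The early response genes are themselves related to each other across these libraries, so the 18 values are not independent. Because the list was chosen with earlier results of these data known, its counts beside all genes are a description and no independent result. Whether these correlations hold without the library highest in Gem and Rrad was not tested.

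**Figure D5:**
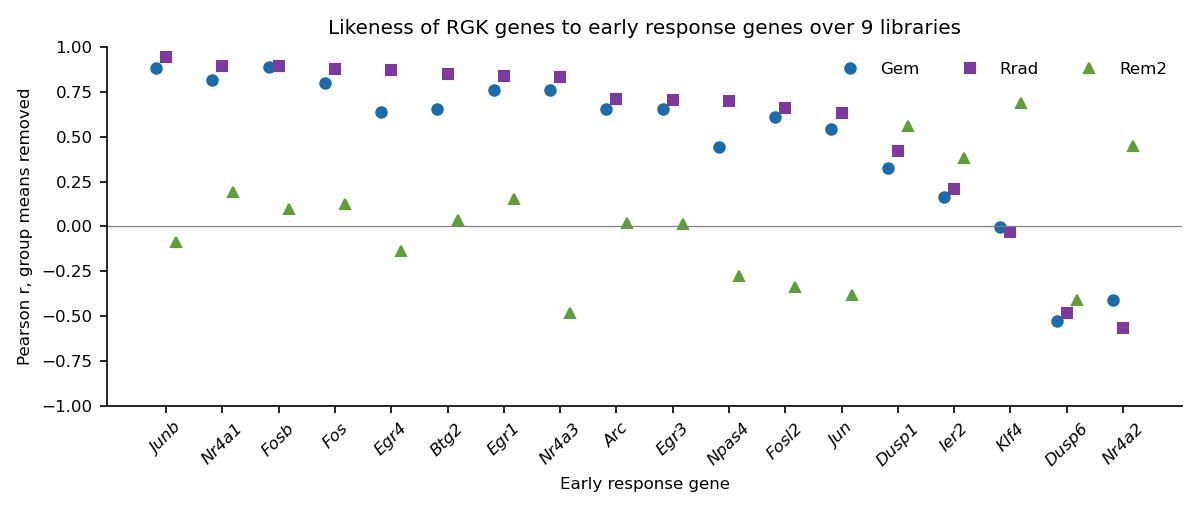
Pearson's r between each of the 18 early response genes tested and Gem (circles), Rrad (squares) and Rem2 (triangles) over 9 libraries, after removal of group means, ordered by the value for Rrad. Gem and Rrad run close to each other along the list, with 12 and 13 genes above 0.5, and Rem2 scatters around zero.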

How the data were processed

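The authors quantified stranded paired-end mRNA reads with kallisto (0.46.1 in the submitters' processing notes, with FastQC 0.11.9 and edgeR 3.40.1) on mm10. They deposited estimated counts and TPM for 119414 transcripts per library. They also deposited a table of gene log2 CPM, in which all 10 members have a row. The annotation release is not given in the sources used here. Transcripts were matched to GENCODE M21 genes by identifier without version (97.8%), and the unmatched 1.20% to 1.27% of counts were left out. Counts were summed per gene, and rounded for edgeR and DESeq2 only.

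Genes with CPM above 1 in at least 4 libraries were fitted with limma-voom (limma 3.58.1, TMM from edgeR 4.0.16, R 4.3.3) without covariates, and p-values were adjusted by Benjamini-Hochberg over all genes. Single values were compared by two-sided exact permutation over the 126 splits into 4 and 5. Alternatives included edgeR, DESeq2 1.42.0 and limma-trend. On simulated data for 15340 genes with 200 changed 2-fold, limma-voom recovered 95.5% of them at an adjusted p under 0.05, with 3.05% false calls. No smaller change was simulated, so the recovery of differences below 1.5-fold, such as those of the channel genes, is not known.

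The members and all gene lists were chosen with earlier results of these data known. Genes named are the members, Rem1, list genes with p under 0.05 and the 5 genes most like each RGK gene; Arc, Npas4, Fosb, Dusp6 and Nr4a2 were added after their values were seen. The deposited labels give no batch, and p-values measure the spread between litters. Amino acid and promoter sequences were not used here. 1 gene of the lists, included in their counts, is not reported here.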

Additional observations from a re-analysis of the deposited data

Results flagged for a closer look

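In 5 of 122 groups of library values (log2 CPM, shares and transcript shares of the members), 1 library stood apart from the rest of its group by Dixon's test, and chance would give 6.1. In CTRL 3, Gem-202 carried 91.6% of Gem TPM and Gem-201 8.42%, where the other 3 CTRL libraries had 100% and 0%. In CTRL 3, Cacnb4-203 carried 46.9% of Cacnb4 TPM, where the others had 31.4% to 33.7%. In CTRL 1, Cacnb2-206 carried 4.06% of Cacnb2 TPM, where the others had 5.04% to 5.23%. In CTRL 2, Cacna1a-211 carried 13.5% of Cacna1a TPM, where the others had 10.2% to 10.8%. No group of log2 CPM values of a member was among the 5.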

How the results depend on the processing

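Gem and Rrad were lower in Emul under every alternative run, with log2 fold changes of -0.68 to -0.61 and -0.74 to -0.62 where no library was left out, and -0.80 to -0.53 and -0.80 to -0.57 with each library left out in turn. For Rem2, edgeR and limma-trend gave 0.22 and 0.22 with an unadjusted p under 0.05. Length-scaled counts gave 0.093 both over all transcripts and over lower-numbered ones, and the replicate block 0.20, all with an unadjusted p above 0.05. Leaving out single libraries gave 0.17 to 0.27, with an unadjusted p under 0.05 only without Emul 4.

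Scaling by library size alone gave 0.085 for Cacnb2, 0.067 for Cacnb4 and -0.013 for Cacnb3, so both calls were lost and Cacnb3 changed direction. Gene counts scaled from TPM by length gave 0.068 for Cacnb2, 0.075 for Cacnb4, 0.045 for Cacna1c, -0.074 for Cacna1a and -0.055 for Cacna1b. The authors' log2 CPM table gave 0.070, 0.081, 0.080, -0.11 and -0.054 for the same genes and -0.090 for Cacnb3. Lower-numbered transcripts with length scaling, which changes both choices at once, gave 0.073, 0.075, 0.077, -0.11, -0.054 and -0.095. Of the 8 members other than Gem and Rrad, 0 had an unadjusted p under 0.05 in these 3 alternatives, 1 did with library size alone, and 1 to 4 with single libraries left out. Of the 49 list genes, 9 had p under 0.05 with library size alone, 9 with length-scaled counts, and 9 (without CTRL 3) to 19 with single libraries left out. The share of all genes with p under 0.05 was not counted under these alternatives. Leaving out single libraries gave 0.092 to 0.15 for Cacnb2, -0.014 to 0.044 for Cacnb3 and 0.070 to 0.12 for Cacnb4.

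With the replicate number as a replicate block, Cacnb2 (0.10) and Cacnb4 (0.092) were no longer past the threshold, leaving 1 of 8 members. Correlations between same-numbered libraries were -0.16 to 0.021, so no pairing by number showed over all genes. These correlations cannot exclude a link that touches fewer genes, which was not tested.

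Shares depended on the unit. With CPM in place of TPM, the Cacnb2 share differed by 0.77 and the Cacna1c share by 0.93 percentage points (both adjusted p = 0.028, exact permutation test), the Cacnb3 share by -0.54, and RGK transcripts per 100 β transcripts by -1.91 in place of -4.38. The Cacnb3 share differed by -1.21 and the Cacna1b share by 0.17 with lower-numbered transcripts, and the Cacna1a share by 1.14 with protein-coding transcripts. With single libraries left out, the shares of Cacnb3 (-0.41 to 0.40), Cacnb4 (-0.028 to 1.03), Cacna1a (-1.63 to 0.62) and Cacna1b (-1.42 to 0.87) changed sign. The cause was not tested for any of these. With 88 to 219 counts, Gem and Rem2 also carry more counting error than the channel genes, at 1832 or more.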
